A study of Homo sapiens with 9 samples.

Results

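The SLC25 family, the mitochondrial carriers, was examined in PANC-1 cells kept under combined nutrient and oxygen deprivation. Members were all gene symbols of the deposited table made of SLC25A and a number, 48 of 27800 symbols, chosen by name and not by their values. PANC-1 is an established line from a human pancreatic tumour. Its RNA was sequenced at day 0, day 2 and day 14, with 3 libraries per day and no further treatment per the labels. The column headers of the deposited values mark all 9 libraries as WT. One growth medium was stated for all 9 libraries, DMEM with 2.5 mM glucose, 0.5% serum and amino acids at 20% of the standard level, so how the day 0 cells were kept is not known from the labels. No undeprived cells were sampled at day 2 or day 14, so deprivation, time in culture and any batch by day cannot be told apart. The labels did not say whether replicates came from separate cultures, and p-values measure only the spread between these libraries, which may be technical.

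SLC25 proteins sit mostly in the inner mitochondrial membrane, which is otherwise closed to charged metabolites. Most work as exchangers: ADP enters and ATP leaves, aspartate leaves for glutamate, citrate leaves for malate. They thus connect the respiratory chain, the TCA cycle, amino acid breakdown, haem synthesis and nucleotide pools of the matrix with the cytosol. In these libraries the carriers did not move as 1 block. SLC25A36, SLC25A23 and SLC25A45 rose at both times, and SLC25A42, low in every library, rose at day 14. SLC25A5, the carrier with the highest mean over the 9 libraries, fell together with SLC25A10 and SLC25A17.

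The DNA just upstream of the annotated starts is shown for 2 genes that rose and 1 that fell at both later days, as examples of each direction. Each line gives the 250 bases before the start from RefSeq (GRCh38.p14), 5′ to 3′ on the gene's strand. Capitals mark ACGTG and GCGTG, the core letters of hypoxia response elements, searched on both strands (CACGT and CACGC on the other).
SLC25A36, chr3:140941586-140941835, plus strand: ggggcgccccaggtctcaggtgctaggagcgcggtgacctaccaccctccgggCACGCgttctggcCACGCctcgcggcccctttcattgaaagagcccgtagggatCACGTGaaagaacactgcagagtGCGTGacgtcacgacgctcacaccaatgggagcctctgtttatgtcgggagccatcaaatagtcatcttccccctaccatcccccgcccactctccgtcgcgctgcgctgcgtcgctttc
SLC25A23, chr19:6459793-6460042, minus strand: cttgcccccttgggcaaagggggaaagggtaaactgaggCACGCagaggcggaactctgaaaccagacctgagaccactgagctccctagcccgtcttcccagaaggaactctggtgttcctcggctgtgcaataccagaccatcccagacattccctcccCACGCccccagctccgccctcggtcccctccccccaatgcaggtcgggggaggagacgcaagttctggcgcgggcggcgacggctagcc
SLC25A5, chrX:119468194-119468443, plus strand: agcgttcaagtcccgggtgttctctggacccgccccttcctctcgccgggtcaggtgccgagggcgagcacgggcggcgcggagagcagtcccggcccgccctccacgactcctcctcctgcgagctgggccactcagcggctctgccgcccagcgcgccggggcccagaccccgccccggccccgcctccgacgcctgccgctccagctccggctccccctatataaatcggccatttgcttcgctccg
The SLC25A36 window held 3 GCGTG matches and 1 CACGTG palindrome, which counts as ACGTG on both strands. SLC25A23, which also rose, held 2 GCGTG matches, and SLC25A5, which fell, held none of the letters searched. GCGTG was found with changes in either direction. SLC25A10, SLC25A12 and SLC25A44, which fell at day 2, each held 2 GCGTG matches, and SLC25A28, which also fell, held 1. SLC25A17, which fell, held neither core. ACGTG was at a start of SLC25A36, SLC25A38 and SLC25A45, which rose, but of neither SLC25A23 nor SLC25A42, which also rose. Of the named carriers that fell and were matched, SLC25A15 held ACGTG, and SLC25A3, SLC25A5, SLC25A10, SLC25A12, SLC25A17, SLC25A18, SLC25A28 and SLC25A44 did not. Whether the letters go with the direction was not tested. Of the 48 members, 40 were matched in the RefSeq table, with 51 starts. ACGTG was found at 14 of those starts (27.5%) and GCGTG at 37 (72.5%), against 18.5% and 32.2% of all 35116 starts in the table. The starts were not matched for base content, although both cores contain the bases CG. Member starts were not independent: the SLC25A6 window was listed on X and on Y, and SLC25A22 and SLC25A26 had several starts each. The part of base content in the difference of shares was not tested. The amino acid response letters TGATGNAA, bound by C/EBP and ATF factors, were at 1 member start (1.96%), that of SLC25A11, against 3.14% of all starts. The palindrome of nuclear respiratory factor 1 was at 0 member starts against 1.03% of all. A match describes letters only, and no binding was measured.

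Each value is in TPM, a transcript share corrected for length, so levels can be set side by side between genes but carry no record of sequencing depth, and no counting interval can be given. In bulk RNA, fewer cells with a transcript and less transcript per cell cannot be told apart. Each library listed 11363 to 13868 symbols at 1 TPM or more. Short entries MIR6723 and MIR4461 took 22.4% to 40.3% of TPM. Day 0 replicate 2 stood apart: its correlations with the other day 0 libraries were 0.870 and 0.875, against 0.972 between those, and ribosomal protein genes took 23.8% of it against 10.2% to 14.8% elsewhere. Among the tested carriers it lay below both other day 0 libraries for 26 of 38 and above both for 9. For 17 members its value was lower than their mean by more than 1.5 times, and for 2 higher by as much. Counts below are therefore also given without it. Markers of the line were present, with the keratin KRT8 at 1563 to 2253 TPM and the mesenchymal filament VIM at 1278 to 2526 TPM on day 0. The 7 marker genes, VIM included, summed to 5564 to 5955 TPM at day 0, 2698 to 3013 at day 2 and 2064 to 2405 at day 14. Of these markers 4 fell at day 2 and 5 at day 14, KRT8 by log2 -2.08 and -1.89 (adjusted p = 0.000273 and 0.000439). Of all tested genes, 11.5% and 6.72% fell. At day 2, CDH1 and KRT7 changed upward and VIM downward, none under 0.05 (limma adjusted p = 0.0656, 0.263 and 0.521). Without day 0 replicate 2, 1 marker rose and 5 fell at day 2, and 1 rose and 6 fell at day 14. In that fit 24.7% of all genes rose and 23.6% fell at day 2, and 34.6% and 14.5% at day 14. Acinar, islet and hepatocyte markers summed to at most 1.57, 0.670 and 0.525 TPM in any library. Fibroblast markers summed to 10.6 to 63.1, 56.6 to 74.2 and 8.82 to 13.2 TPM at day 0, 2 and 14, almost all of it COL1A1, with DCN at 0 in every library. Blood markers summed to 40.4 to 70.6, 26.8 to 45.9 and 45.6 to 57.8 TPM, mostly CD68, with HBB and CD3E at 0. The part of these shifts in the carrier results was not tested.

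Of the 48 members, 38 passed the filter (at least 1 TPM in at least 3 libraries) and were tested. The other 10 stayed low: SLC25A21, the oxodicarboxylate carrier, reached 1.41 TPM and 1 TPM or more in 2 libraries, and SLC25A2, SLC25A27, SLC25A31, SLC25A34, SLC25A41, SLC25A47, SLC25A48, SLC25A52 and SLC25A53 never reached 1 TPM. SLC25A31, the germ cell ADP/ATP carrier, was listed at 0 in 8 of 9 libraries. The summed TPM of all 48 members was 1858, 1825 and 1841 at day 0, 1318, 1420 and 1328 at day 2, and 1725, 1439 and 1384 at day 14. Both later days lay below day 0 in every library, with no overlap between day 0 and day 2. With MIR6723 and MIR4461 left out of the TPM total, the sums were 3014, 2352 and 2951 at day 0. They were then 2207, 2052 and 2178 at day 2, and 2309, 2131 and 2071 at day 14. On that scale day 0 replicate 2 lay apart from the other day 0 libraries and close to day 14 replicate 1. The 5 members with the highest mean over all libraries, SLC25A5, SLC25A3, SLC25A6, SLC25A39 and SLC25A1, made up 59.7% to 74.7% of that sum.

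**Figure D1:**
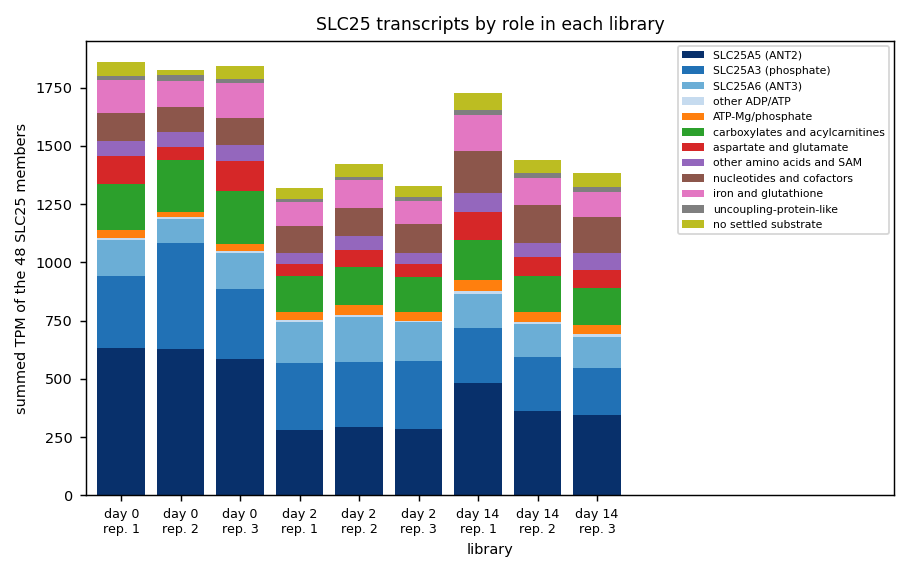
Stacked bars give the summed TPM of the 48 SLC25 members in each of the 9 libraries (x axis), split into the 3 most abundant carriers and the role groups. The SLC25A5 block shrinks from 586 to 631 TPM at day 0 to 279 to 295 at day 2, which is most of the difference in bar height.

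By limma with Benjamini-Hochberg adjustment over 14144 genes at 0.05, 3 carriers rose and 8 fell at day 2 against day 0. That is 7.89% higher and 21.1% lower of 38, beside 19.2% and 11.5% of all tested genes. At day 14 against day 0, 6 rose and 5 fell (15.8% and 13.2%), beside 27.5% and 6.72% of all tested genes. The moderated F test over the 3 days called 10 carriers (26.3%, against 35.4% of all). The median log2 change of the tested members was -0.23 at day 2 and 0.06 at day 14, where the median of all genes was 0.23 and 0.44, and 9 and 10 of 38 lay above that median. Without day 0 replicate 2, 3 rose and 11 fell at day 2 of 37 tested (24.7% and 23.6% of all genes), and 7 rose and 9 fell at day 14 (34.6% and 14.5%). All 11 day 2 calls and all 10 day 14 calls that could be retested held in that fit. Scaling by median ratios moved the median of all genes by -0.22 at day 2 and -0.44 at day 14. On that scale the split at day 14 was 4 higher and 18 lower (16.8% each way of all genes), and by quantile normalization 4 and 15 (17.1% and 17.4%). Dropping day 0 replicate 3 left 5 falls at day 2, and dropping day 2 replicate 1 or 3 left 4. Those fits called 1273 of 14039, 945 of 14028 and 960 of 14014 genes lower, against 1633 of 14144 with all libraries. At day 14, dropping day 2 replicates 1, 2 or 3 left 3, 2 and 2 falls, and dropping day 14 replicates 2 or 3 left 1 and 2. Over all genes these fits called 782 of 14028, 838 of 13946, 783 of 14014, 623 of 13978 and 629 of 13945 lower, against 951 of 14144. Calls thus dropped over all genes as well.

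**Figure D2:**
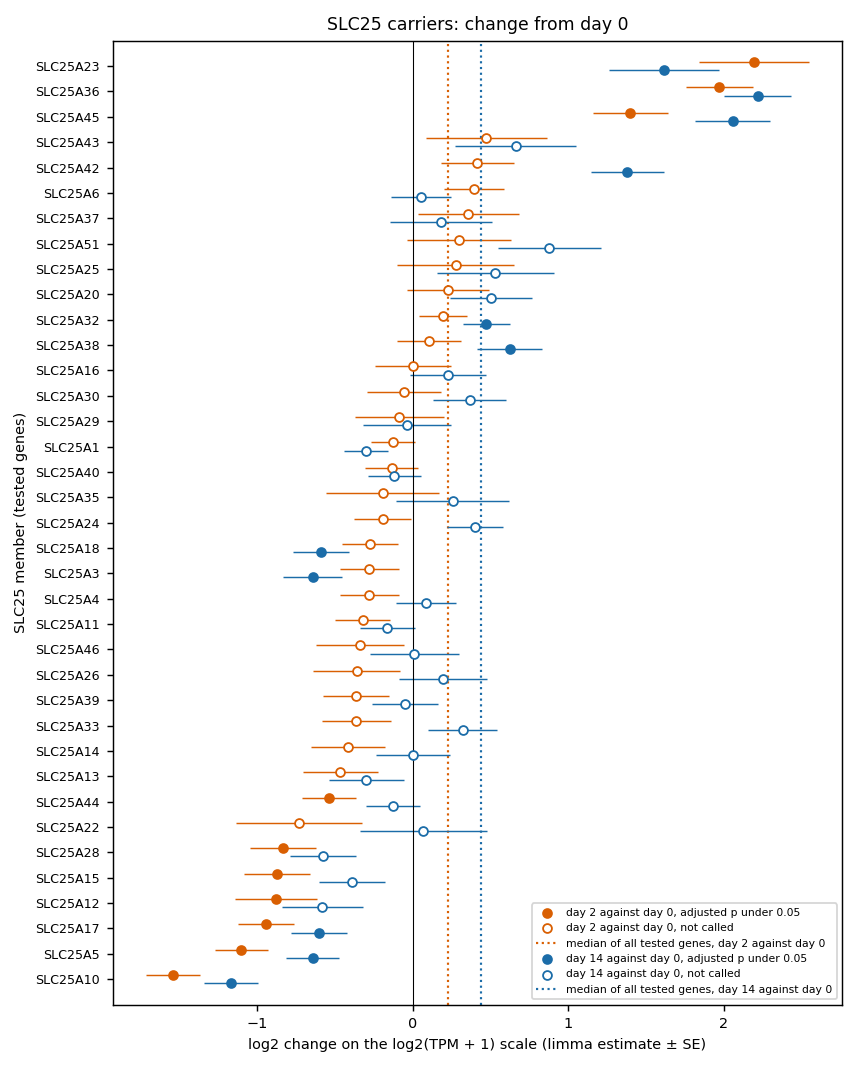
Each row is 1 of 37 tested members, with its log2 change from day 0 on the log2(TPM + 1) scale ± SE at day 2 (orange) and day 14 (blue), filled where called, and dotted lines at the median of all genes (0.23 and 0.44). Only SLC25A23, SLC25A36 and SLC25A45 are filled to the right at both days, while SLC25A5, SLC25A10 and SLC25A17 are filled to the left at both.

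The ADP/ATP carriers and the phosphate carrier supply ATP synthase with its substrates. SLC25A5 (ANT2), the ADP/ATP carrier of dividing cells, was at 631, 630 and 586 TPM at day 0, 279, 295 and 284 at day 2, and 483, 364 and 347 at day 14. All day 2 and day 14 libraries lay below all day 0 libraries, and all day 14 libraries lay above those of day 2. The log2 change was -1.10 ± 0.17 (SE) at day 2 (limma adjusted p = 0.00231) and -0.64 ± 0.17 at day 14 (adjusted p = 0.0204). The day 14 call was lost without day 14 replicate 2 or 3 (adjusted p = 0.0782 and 0.0802). SLC25A6 (ANT3), a second isoform of broad expression, was at 154, 103 and 156 TPM at day 0, 178, 193 and 165 at day 2, and 145, 143 and 134 at day 14. Every day 2 library lay above those of day 0 and day 14, but its changes were not called (log2 0.39, adjusted p = 0.150, and 0.06, adjusted p = 0.838). SLC25A4 (ANT1), the isoform of heart and muscle, stayed low, from 6.24 to 10.6 TPM over all libraries, and was not called. SLC25A3, the phosphate carrier, was at 312, 451 and 298 TPM at day 0, 287, 279 and 293 at day 2, and 237, 230 and 201 at day 14. It fell at day 14 (log2 -0.64 ± 0.19, adjusted p = 0.0315), with no overlap. Leaving out any 1 library of day 2 or day 14 ended that call (adjusted p = 0.0578, 0.0511 and 0.0572 for day 2 replicates 1 to 3, and 0.0571, 0.0776 and 0.106 for day 14 replicates 1 to 3).

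The makeup of the ADP/ATP carrier pool differed with the day. SLC25A5 held 79.5%, 84.7% and 78.2% of the summed SLC25A4, SLC25A5 and SLC25A6 TPM at day 0, 60.2%, 59.5% and 62.4% at day 2, and 75.7%, 70.5% and 70.7% at day 14. SLC25A6 held 19.4%, 13.9% and 20.8%, then 38.3%, 38.9% and 36.2%, then 22.7%, 27.8% and 27.3%. No library of one day overlapped with another day in either share. An exact permutation test of the F statistic over all assignments of libraries to days was run on the log2 ratio of 12 carrier pairs with a like substrate, of 13 listed. For SLC25A5 over SLC25A6 that ratio was 2.18 ± 0.37 (SD, n = 3) at day 0, 0.68 ± 0.09 at day 2 and 1.48 ± 0.22 at day 14 (exact p = 0.00357, the smallest this test can give, adjusted p = 0.0107 over the pairs). Pairs of other genes were not tested, so counts of called pairs cannot be set against a share of gene pairs at large. SLC25A5 and SLC25A6 have 9 and 6 named pseudogenes in GENCODE 29, and how reads of such copies were shared out is not known, which leaves both levels uncertain.

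Carriers of ATP-Mg against phosphate adjust the adenine nucleotide pool of the matrix and are opened by calcium. SLC25A23 was at 4.11, 1.09 and 4.86 TPM at day 0, 15.8, 19.03 and 17.0 at day 2, and 10.5, 11.4 and 11.7 at day 14. The 3 days did not overlap, with day 2 highest. The log2 change was 2.20 ± 0.35 at day 2 (adjusted p = 0.0028) and 1.62 ± 0.35 at day 14 (adjusted p = 0.0095). SLC25A24, its close relative, was at 20.7, 17.6 and 18.1 TPM at day 0, 15.3, 16.1 and 17.4 at day 2, and 30.9, 23.1 and 22.1 at day 14, and it was not called (adjusted p = 0.442 and 0.117). The log2 ratio of SLC25A23 to SLC25A24 was -2.31 ± 0.75, 0.08 ± 0.14 and -1.10 ± 0.33 (SD, n = 3) at day 0, 2 and 14 (exact permutation p = 0.00357, adjusted p = 0.0107). At day 2 the pair was thus near parity, with TPM ratios of 1.03, 1.18 and 0.974. SLC25A25, the third tested member of the group, ranged from 1.85 to 8.56 TPM and was not called.

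**Figure D3:**
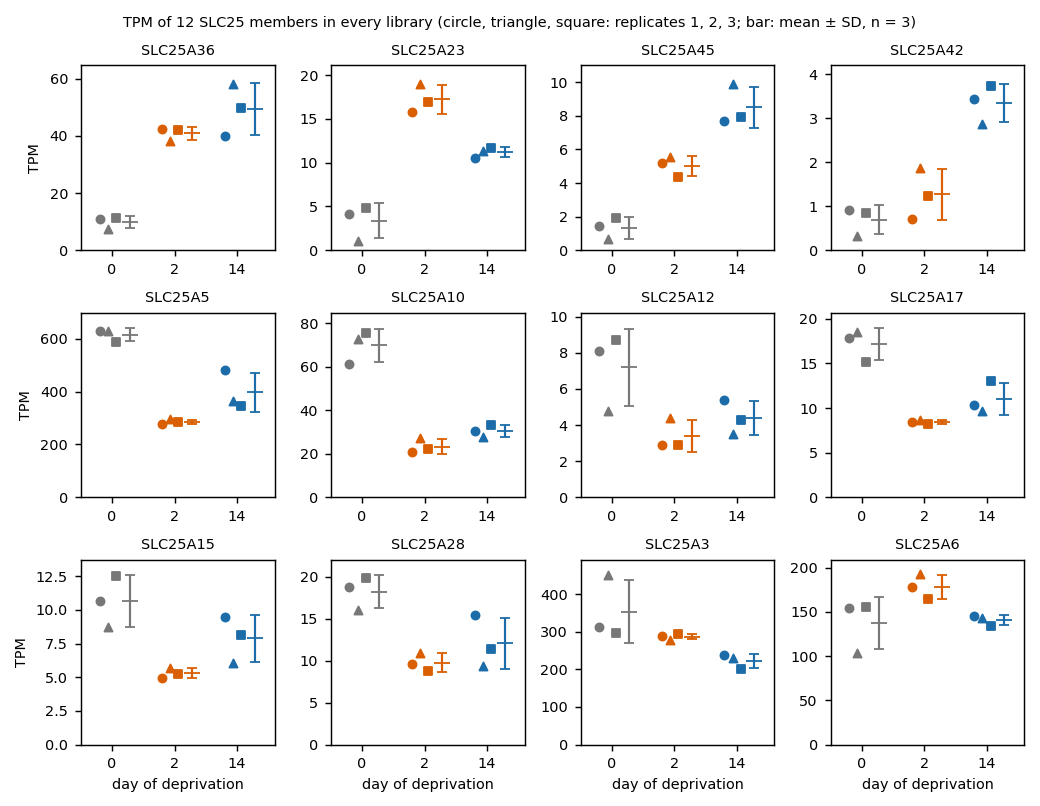
Small panels give TPM (y axis, from 0) of 12 members in each library by day of deprivation, with replicates as circle, triangle and square and the mean ± SD of 3 libraries beside them. In the top row the rises of SLC25A36, SLC25A23 and SLC25A45 clear every day 0 library at both days, and SLC25A42 does so only at day 14.

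Carboxylate carriers link the TCA cycle with the cytosol. SLC25A10, the dicarboxylate carrier, which exchanges malate or succinate for phosphate, was at 61.4, 72.5 and 75.5 TPM at day 0, 20.8, 27.1 and 22.2 at day 2, and 30.4, 27.7 and 33.4 at day 14. Both later days lay below all of day 0. It fell by 1.54 on the log2 scale at day 2 (SE 0.17, adjusted p = 0.000597) and by 1.17 at day 14 (adjusted p = 0.00204). SLC25A11, the 2-oxoglutarate/malate carrier of the malate-aspartate shuttle, was at 43.6, 49.0 and 56.3 TPM at day 0, 36.6, 44.6 and 37.3 at day 2, and 49.9, 42.9 and 39.8 at day 14, and was not called (adjusted p = 0.193 and 0.492). The order of the pair therefore changed: the TPM ratio of SLC25A10 to SLC25A11 was 1.41, 1.48 and 1.34 at day 0 and 0.568 to 0.838 in the 6 later libraries. The exact permutation p of the log2 ratio was 0.00357 (adjusted p = 0.0107). SLC25A1, the citrate carrier that feeds cytosolic acetyl-CoA, was at 81.6, 94.96 and 83.1, then 82.3, 77.0 and 78.0, then 71.3, 69.7 and 68.7 TPM. Its day 14 libraries all lay below day 0, but it was not called (log2 -0.30, adjusted p = 0.129). SLC25A20, the carnitine/acylcarnitine carrier of fatty acid oxidation, ranged from 7.45 to 19.1 TPM and was not called (adjusted p = 0.538 and 0.165).

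Among the aspartate and glutamate carriers, SLC25A12 (aralar) exports aspartate in the malate-aspartate shuttle. It was at 8.11, 4.78 and 8.70 TPM at day 0, 2.90, 4.41 and 2.90 at day 2, and 5.39, 3.51 and 4.30 at day 14. The day 2 libraries lay below day 0, and it fell by 0.88 on the log2 scale (SE 0.26, adjusted p = 0.0336). That call was lost without day 0 replicate 1 or 3, day 2 replicate 1 or 3 or day 14 replicate 3 (adjusted p = 0.0831, 0.0898, 0.114, 0.112 and 0.0554). SLC25A13 (citrin), the other aspartate/glutamate carrier, was higher in level, at 15.7 to 29.7 TPM over all libraries, and was not called with all libraries. SLC25A22, a glutamate carrier, spread widely at day 0 (85.4, 32.8 and 90.4 TPM), was at 32.8, 49.8 and 32.9 TPM at day 2 and 94.2, 53.9 and 58.0 at day 14. Day 0 replicate 2 lay below every day 2 library and the other day 0 libraries above them, and its day 2 change was not called (log2 -0.73, adjusted p = 0.198). SLC25A13 and SLC25A22 were both called lower at day 2 without that library. SLC25A18, the second glutamate carrier, was under 2 TPM everywhere and was called lower at day 14 (log2 -0.59, adjusted p = 0.0342). It passed the filter only through libraries of day 0 and day 2, as every day 14 library was under 1 TPM. Its call was lost without day 2 replicate 3 (adjusted p = 0.0541) or day 14 replicate 1, 2 or 3 (adjusted p = 0.0980, 0.0616 and 0.0812).

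Among carriers of other amino acids, SLC25A15 and SLC25A44 were called lower at day 2 and SLC25A38 higher at day 14. SLC25A15, the ornithine carrier of the urea cycle, was at 10.7, 8.70 and 12.6 TPM at day 0, 4.96, 5.69 and 5.25 at day 2, and 9.50, 6.04 and 8.15 at day 14. It fell at day 2 (log2 -0.87 ± 0.21, adjusted p = 0.0157), and the day 14 libraries lay between the other days with some overlap with day 0. Without day 2 replicate 1 or 3 the adjusted p was 0.0633 and 0.0570. SLC25A15 has 5 named pseudogenes in GENCODE 29. SLC25A44, a branched-chain amino acid carrier, was at 18.9, 14.9 and 17.7 TPM at day 0, 9.99, 13.1 and 11.4 at day 2, and 14.7, 15.8 and 16.3 at day 14. Its day 2 fall (log2 -0.54, adjusted p = 0.0462) was lost without any 1 library other than day 0 replicate 2, at adjusted p = 0.118 and 0.101 (day 0 replicates 1 and 3), 0.168, 0.0644 and 0.130 (day 2 replicates 1 to 3) and 0.0613, 0.0773 and 0.0772 (day 14 replicates 1 to 3). SLC25A38, which brings glycine into the matrix for haem synthesis, was at 16.3, 19.8 and 16.4 TPM at day 0, 15.8, 22.1 and 19.1 at day 2, and 33.2, 22.4 and 27.6 at day 14. It rose at day 14 (log2 0.62 ± 0.21, adjusted p = 0.0468), but this is close to the shift of all genes (0.44). By median-ratio scaling it was 0.10 (adjusted p = 0.816) and by quantile normalization 0.26 (adjusted p = 0.439). The call also ended without 7 single libraries: day 0 replicate 1 or 3 (adjusted p = 0.0997 and 0.101), day 2 replicate 1, 2 or 3 (0.0639, 0.0601 and 0.0785) and day 14 replicate 1 or 3 (0.140 and 0.116). SLC25A26, which imports S-adenosylmethionine, and SLC25A29, a carrier of basic amino acids, ranged from 6.22 to 15.1 and from 6.71 to 13.2 TPM and were not called with all libraries.

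Nucleotide and cofactor carriers gave both rises and falls. SLC25A36, which moves pyrimidine nucleotides needed for mitochondrial DNA and RNA, was at 10.9, 7.30 and 11.3 TPM at day 0, 42.5, 38.3 and 42.1 at day 2, and 40.1, 58.3 and 49.7 at day 14. Every later library was more than 3 times the highest day 0 library, and days 2 and 14 overlapped. It rose by 1.97 ± 0.22 at day 2 (adjusted p = 0.000513) and by 2.22 ± 0.22 at day 14 (adjusted p = 0.000388) on the log2 scale. SLC25A33, the other pyrimidine nucleotide carrier, was at 25.5, 33.9 and 26.5 TPM at day 0, 20.9, 21.9 and 22.9 at day 2, and 48.8, 30.4 and 30.7 at day 14, and was not called (adjusted p = 0.237 and 0.280). The log2 ratio of SLC25A33 to SLC25A36 went from 1.46 ± 0.53 (SD, n = 3) at day 0 to -0.88 ± 0.11 at day 2 and -0.44 ± 0.63 at day 14 (exact permutation p = 0.0107, adjusted p = 0.0214). Without day 0 replicate 2, day 2 replicate 1 or day 14 replicate 1 the adjusted p of this ratio was 0.0696, 0.0571 and 0.0536. The carrier that was the lesser of the pair at day 0 was thus the greater in 5 of 6 later libraries, the exception being day 14 replicate 1 (TPM ratio 1.22).

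SLC25A17, a peroxisomal carrier of coenzyme A and other cofactors, was at 17.9, 18.5 and 15.1, then 8.39, 8.68 and 8.19, then 10.3, 9.69 and 13.1 TPM. It fell at day 2 (log2 -0.94 ± 0.18, adjusted p = 0.00528) and at day 14 (-0.60 ± 0.18, adjusted p = 0.0303). The day 14 call was lost without day 0 replicate 1 (adjusted p = 0.0715), day 2 replicate 1, 2 or 3 (0.0595, 0.0519 and 0.0591) or day 14 replicate 1 or 2 (0.0863 and 0.112).

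SLC25A42, a coenzyme A carrier, was low at 0.905, 0.311 and 0.852 TPM at day 0 and 0.708, 1.88 and 1.23 at day 2, and reached 3.44, 2.88 and 3.74 at day 14. Its day 14 libraries lay above all others, and it rose by 1.38 ± 0.23 on the log2 scale (adjusted p = 0.00348). Without those libraries, where it was highest, it would not have passed the filter, so its place among the calls rests on them. SLC25A16, also linked to coenzyme A, was at 12.4, 6.67 and 12.9 TPM at day 0 and 9.81 to 12.8 TPM later, and was not called. The log2 ratio of SLC25A16 to SLC25A42 was 2.76 ± 0.19, 2.35 ± 0.35 and 1.61 ± 0.22 (SD, n = 3; exact permutation p = 0.00714, adjusted p = 0.0171). With a pseudocount of 5 the adjusted p was 0.190, and without day 14 replicate 1 or 3 it was 0.0735 for each. SLC25A51, which carries NAD, was at 7.13, 2.77 and 6.94 TPM at day 0, 5.24 to 8.88 at day 2 and 8.83 to 13.01 at day 14. It missed the threshold at day 14 (log2 0.88, adjusted p = 0.0707). SLC25A32, linked to folate and FAD, was at 21.1, 19.2 and 21.4 TPM at day 0, 22.9, 23.3 and 24.9 at day 2 and 31.0, 29.7 and 26.2 at day 14, with no overlap between days. It was called higher at day 14 (log2 0.47 ± 0.15, adjusted p = 0.0418), a size close to that of the median gene, and median-ratio scaling turned its sign (-0.06, adjusted p = 0.847), while quantile normalization gave 0.12 (adjusted p = 0.600). Its call held without day 0 replicate 2 and was lost without any other single library (adjusted p = 0.0740 and 0.0686 without day 0 replicates 1 and 3, 0.0781, 0.0677 and 0.0771 without day 2 replicates 1 to 3, and 0.110, 0.123 and 0.0686 without day 14 replicates 1 to 3).

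**Figure D4:**
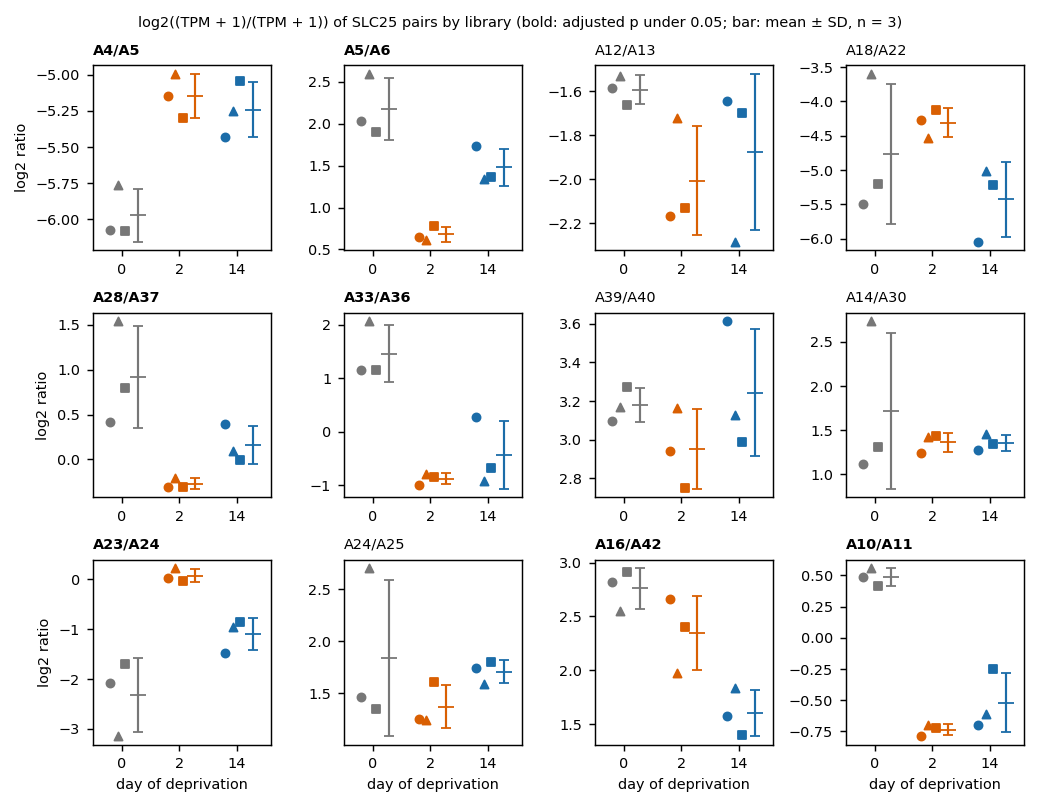
Each panel gives the log2((TPM + 1)/(TPM + 1)) ratio of 2 carriers with a like substrate in every library by day (replicates as circle, triangle, square, and mean ± SD of 3), with bold titles for the 7 of 12 pairs called by the exact permutation test. SLC25A5 over SLC25A6 and SLC25A10 over SLC25A11 drop at day 2, and SLC25A23 over SLC25A24 climbs. Pairs of other genes were not tested, so 7 of 12 has no share to be set beside it.

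Mitoferrins bring iron into the matrix for haem and iron-sulphur clusters. SLC25A28 (mitoferrin 2) was at 18.8, 15.98 and 19.8 TPM at day 0, 9.65, 10.9 and 8.75 at day 2, and 15.4, 9.40 and 11.4 at day 14. It fell at day 2 (log2 -0.83 ± 0.21, adjusted p = 0.0184), a call lost without day 0 replicate 3 or day 2 replicate 1 or 3 (adjusted p = 0.0525, 0.0646 and 0.0762). SLC25A37 (mitoferrin 1) was at 13.8, 4.84 and 11.0 TPM at day 0, 12.2, 12.7 and 11.0 at day 2 and 11.5, 8.76 and 11.4 at day 14, and was not called (adjusted p = 0.426 and 0.682). The log2 ratio of SLC25A28 to SLC25A37 was 0.92 ± 0.57, -0.27 ± 0.06 and 0.16 ± 0.21 (SD, n = 3; exact permutation p = 0.00357, adjusted p = 0.0107). The adjusted p was 0.0735 without day 2 replicate 1 or 3, 0.05 (not under the threshold) without day 2 replicate 2 and 0.0643 without day 14 replicate 1. SLC25A39, which brings glutathione into the matrix, was at 100.1, 82.9 and 110.1 TPM at day 0, 72.0, 84.3 and 70.2 at day 2, and 122, 87.5 and 76.6 at day 14, and its days overlapped with no call. SLC25A40, its relative, ranged from 8.33 to 10.8 TPM and was not called, nor was the ratio of that pair (adjusted p = 0.459).

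The seventh called pair was SLC25A4 over SLC25A5, with a log2 ratio of -5.97 ± 0.18, -5.15 ± 0.15 and -5.24 ± 0.19 at day 0, 2 and 14 (SD, n = 3; exact permutation p = 0.0179, adjusted p = 0.0306). It was not called without day 2 replicate 1 or 2 or day 14 replicate 1 (adjusted p = 0.0571, 0.0612 and 0.0643). SLC25A5 is part of this pair and of SLC25A5/SLC25A6, so their calls are not independent. The ratios SLC25A5/SLC25A6, SLC25A23/SLC25A24 and SLC25A10/SLC25A11 were called without each library in turn, at adjusted p of 0.0429 or less.

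Uncoupling-protein-like carriers were not called. SLC25A14 (UCP5) ranged from 10.0 to 22.3 TPM, its highest value in day 0 replicate 2, and SLC25A30 from 2.50 to 5.69 TPM. Among the 8 members without a settled substrate, 4 were tested. SLC25A45 was at 1.45, 0.636 and 1.92 TPM at day 0, 5.16, 5.55 and 4.33 at day 2, and 7.68, 9.92 and 7.93 at day 14. The 3 days did not overlap and the level was highest at day 14. It rose by 1.40 ± 0.24 at day 2 (adjusted p = 0.00355) and by 2.06 ± 0.24 at day 14 (adjusted p = 0.000768) on the log2 scale. SLC25A43 and SLC25A35 were at 10.7 to 37.1 and 2.36 to 8.62 TPM at day 0 and were not called, with or without day 0 replicate 2. SLC25A46, an outer membrane protein of mitochondrial shape, was at 12.6, 5.51 and 12.4 TPM at day 0 and 7.20 to 10.4 TPM later and was not called with all libraries.

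**Figure D5:**
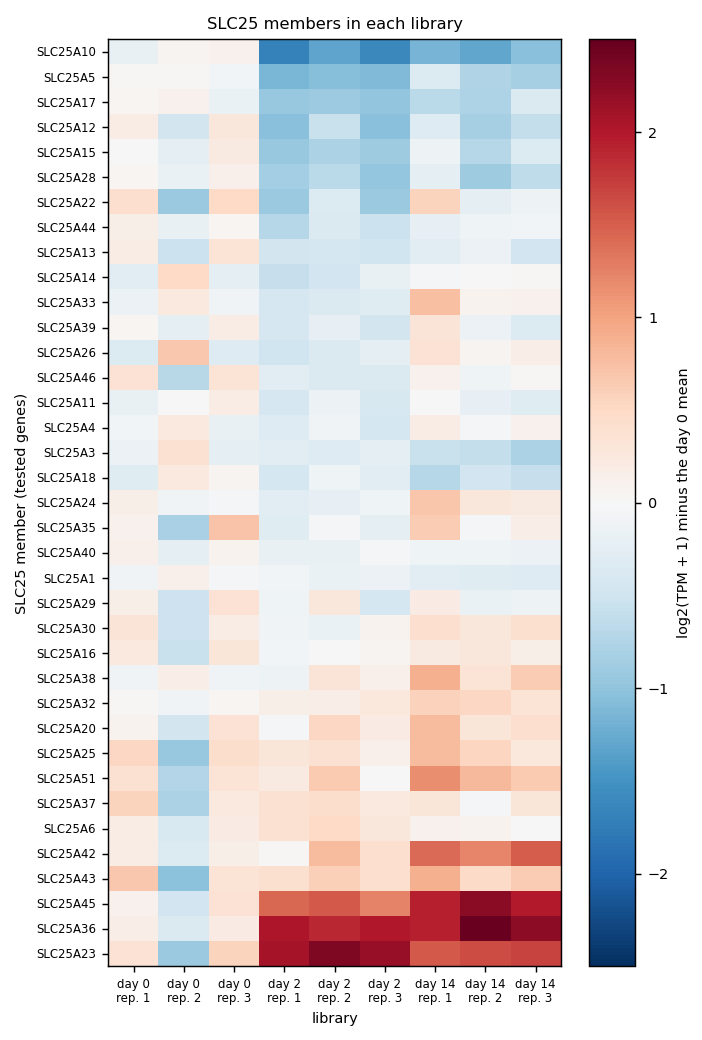
Colours give log2(TPM + 1) minus the day 0 mean for 37 tested members (rows, ordered by the day 2 change) in each of the 9 libraries (columns). Red at the bottom marks SLC25A23, SLC25A36 and SLC25A45, blue at the top marks SLC25A10, SLC25A5 and SLC25A17, and day 0 replicate 2 differs in shade from its 2 partners in many rows.

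From day 2 to day 14 no carrier was called in either direction by limma, where 0.212% and 0.205% of all genes were called. At an unadjusted limma p under 0.05, 8 carriers were higher and 0 lower, but the share of all genes at that threshold was not taken. The median log2 change was 0.33 for the tested members and 0.24 for all genes. The libraries of day 14 lay wholly above those of day 2 for 20 of 38 members and wholly below for 5, beside 36.8% and 7% of all tested genes. With only these 2 days in the fit, 4 carriers were higher and 1 lower, beside 15.1% and 2.69% of all genes. Without day 0 replicate 2, 12 were called higher and 3 lower of 37, where 23.5% and 3.86% of all genes were called. Those higher included SLC25A5, SLC25A14, SLC25A22, SLC25A24, SLC25A26, SLC25A30, SLC25A33, SLC25A42, SLC25A44, SLC25A45 and SLC25A46, and those lower were SLC25A3, SLC25A6 and SLC25A23. In the same fit, SLC25A5, SLC25A22, SLC25A44 and SLC25A46 were among those called lower at day 2 against day 0. Both comparisons share the day 2 libraries, so a fall followed by a rise is partly built in.

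Carriers enter mitochondria through the TOM pore, small TIM chaperones and the TIM22 complex, with cytosolic chaperones bringing them there. For this and the next 3 gene lists, the shares of all genes called higher and lower were 19.2% and 11.5% at day 2 and 27.5% and 6.72% at day 14, and without day 0 replicate 2 they were 24.7% and 23.6%, then 34.6% and 14.5%. Of 19 genes of that route, all tested, 11 fell and 1 rose at day 2, and 4 fell and 2 rose at day 14 (13 and 1, then 5 and 3, without day 0 replicate 2). The median log2 change was -0.83 and -0.43, against 0.23 and 0.44 for all genes. HSPA8, a cytosolic HSP70, was at 1288, 931 and 1065 TPM at day 0, 234 to 337 at day 2 and 206 to 273 at day 14 (log2 -1.90 and -2.21, adjusted p = 0.000554 and 0.000386). TIMM10, a small TIM chaperone, fell at both days (log2 -1.86 and -1.32, adjusted p = 0.0120 and 0.0421), from 82.4, 271 and 91.8 TPM at day 0 with replicate 2 highest. TIMM22, the core of the insertion complex, was at 14.8, 7.93 and 16.8 TPM at day 0 and 34.0, 26.1 and 24.2 at day 14, a rise of 1.09 (adjusted p = 0.0183), and TIMM10B rose by 0.60 and 1.12 at day 2 and day 14 (adjusted p = 0.0330 and 0.00258).

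Other transporters of the mitochondrial membranes gave 1 rise and 7 falls at day 2 and 1 rise and 2 falls at day 14 of 26 tested, beside 11.5% and 6.72% of all genes lower (2 and 14, then 3 and 8, without day 0 replicate 2). TMEM14C, a porphyrin transporter of haem synthesis, rose at both days (log2 0.54 and 1.11, adjusted p = 0.0419 and 0.00236), from 83.1 to 109.8 TPM at day 0 to 133 to 152 and 183 to 229. The falls were led by SFXN2 (log2 -1.27, adjusted p = 0.0110) and SFXN4 (-1.15, adjusted p = 0.0289), sideroflexins, at day 2. SFXN4 was at 34.7, 88.4 and 41.0 TPM at day 0, with replicate 2 highest, which enlarges its fall. MCUB, a subunit of the calcium uniporter (-1.03 and -1.12, adjusted p = 0.00329 and 0.00235), and MTCH2, an outer membrane relative of the carriers (-1.02 and -0.82, adjusted p = 0.00314 and 0.00747), fell at both days.

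Enzymes that make or use the carried metabolites gave 4 rises and 1 fall of 18 tested at each day, beside 19.2% and 27.5% of all genes higher at day 2 and day 14 (4 and 7 at each day without day 0 replicate 2). GOT1, the cytosolic transaminase of the malate-aspartate shuttle, was at 39.1, 37.7 and 47.2 TPM at day 0, 153, 121 and 131 at day 2, and 135, 147 and 91.0 at day 14 (log2 1.69 and 1.54, adjusted p = 0.00103 and 0.00163). ME1, cytosolic malic enzyme, rose at day 2 (log2 2.12, adjusted p = 0.00208), and PYCR1, which makes proline in mitochondria, rose at day 2 and day 14 (log2 1.33 and 1.48, adjusted p = 0.0182 and 0.0113). MDH2, the mitochondrial malate dehydrogenase, fell at both days (log2 -1.10 and -0.94, adjusted p = 0.00669 and 0.0126). Regulators of mitochondrial biogenesis gave 1 rise and 1 fall at day 2 and 4 rises at day 14 of 10 tested, again beside 19.2% and 27.5% of all genes higher (1 and 4, then 4 and 1, without day 0 replicate 2). GABPA, a factor of nuclear genes for mitochondria, rose at day 2 (log2 0.76, adjusted p = 0.0441) and day 14 (1.02, adjusted p = 0.0131). TFB2M, a mitochondrial transcription factor, rose at day 14 (log2 0.97, adjusted p = 0.00462), and TFB1M, a mitochondrial rRNA methyltransferase, fell at day 2 (log2 -0.62, adjusted p = 0.0203). PPARGC1A was under 1 TPM in every library and was not tested.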

How the data were processed

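RNA of PANC-1 cells was sequenced as 9 libraries, 3 per day, assigned by the day and number in their titles. Gene-level TPM, 1 value per symbol and library, was computed by the authors with Salmon, with hg19 as the named build, per the submitters' processing notes; version, annotation, strand setting and filters are not given in the sources used here. Without strand, reads of a carrier and of its antisense RNA (SLC25A25-AS1, SLC25A5-AS1) cannot be told apart. Depth is unknown.

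Members and lists were chosen with earlier results of these data known. Values were taken as log2(TPM + 1), which understates changes of low genes. The filter was 1 TPM or more in 3 or more libraries, which 14144 genes passed. A single limma model (version 3.58.1, R 4.3.3) covered the 9 libraries, with the variance trended on expression. Tests were two-sided, with Benjamini-Hochberg adjustment per comparison and a threshold of 0.05. Pair ratios were tested by exact permutation. Values per library are given for called members with a mean of at least 5 TPM in the highest day (up to 8 rises and 8 falls per comparison), the 5 most abundant members and members of called pairs. Up to 2 rises and 2 falls per list are named. SLC25A18, SLC25A13, SLC25A22, SLC25A46, SLC25A51, the low members and CD68, COL1A1, DCN, HBB, CD3E and PPARGC1A were named after their values were seen. The fit was tested on simulated data, where all genes of a library had the same spread. Of 100 genes changed 4-fold, 72, 78 and 73 were recovered for day 2 against day 0, day 14 against day 0 and day 14 against day 2. Of 100 changed 2-fold, 0, 11 and 4 were recovered, with 2, 4 and 0 false calls among 14144 genes. Alternatives were pseudocounts of 0.1 and 5, other filters (none, or a mean of at least 5 TPM), 2 scalings, TPM without ribosomal protein genes, array weights, no trend, a replicate block, fits of 2 days and leaving out each library; rescaling without short RNA symbols was added after seeing the data. Counts cover all members, but 1 tested member is not reported here by name. Promoters came from a RefSeq table (GRCh38.p14), pseudogene names from GENCODE 29, with no coordinates of the deposited table used.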

Additional observations from a re-analysis of the deposited data

How the results depend on the processing

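Of 22 called carrier changes, 12 held under every alternative that gave a value, among them SLC25A36, SLC25A23, SLC25A45, SLC25A10 at both days, SLC25A5 and SLC25A17 at day 2 and SLC25A42 at day 14. SLC25A42 passed the main filter only through its day 14 libraries, where it was highest. Over single members and alternatives, 376 values kept the call, 77 kept the direction only and 1 reversed, SLC25A32 at day 14 by median-ratio scaling (log2 change -0.055). TPM fixes each library's sum, so no alternative can show a change of total RNA. In simulation 2-fold changes were rarely recovered, but every simulated gene of a library had the same spread. That recovery therefore need not hold for the carriers, some of which were called at smaller changes.

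Array weights, which weigh down libraries that stand apart, gave 18 falls at day 2, 13 at day 14, 18 rises and 3 falls between day 14 and day 2 (33%, 19.7%, 31.2% and 4.56% of all genes), and 34 carriers by the F test. Median-ratio scaling gave 18 falls at day 14 (16.8% of all genes) and 17 by the F test. Quantile normalization gave 15 falls at day 14 and 1 fall between day 14 and day 2 (17.4% and 1.56% of all genes), and 18 by the F test. The fit of only the 2 days compared gave 1 fall at day 14 (4.09% of all genes), and 4 rises and 1 fall between day 14 and day 2. Leaving out each library in turn gave 4 to 11 falls at day 2, 1 to 9 falls at day 14, 0 to 12 rises and 0 to 3 falls between day 14 and day 2, 8 to 24 carriers by the F test and 3 to 7 called pairs. Over all genes those fits called 945 to 3328 lower at day 2 and 623 to 2038 lower at day 14. Between day 14 and day 2 they called 0 to 3311 higher and 0 to 543 lower. For the F test, the share of all genes was taken only in the main fit (35.4%). Its counts under the alternatives therefore cannot be set against all genes. The same holds for counts of called pairs, as pairs of other genes were not tested.

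Libraries with the same replicate number did not deviate together over all tested genes (correlations -0.0795 to 0.0154, and 0 of 9 libraries correlated best with their own number). Whether they shared a culture or batch is not given by the labels and was not tested. The replicate block gave 3 falls at day 14 and 6 at day 2, where 732 and 1226 of all 14144 genes were lower. It gave 0 called pairs, where its smallest possible exact p is 0.0278. The 2 scalings were not run on the pairs.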
